A study of Macaca mulatta with 24 samples.

Results

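The lateral geniculate nucleus (LGN) is the thalamic relay between the retina and the primary visual cortex. In macaques its 2 most ventral layers are magnocellular: their large relay neurons are driven by parasol ganglion cells and carry fast, low-contrast and motion signals. The 4 layers above them are parvocellular, and each layer receives input from 1 eye. Layer 1, the outermost ventral layer, is driven by the contralateral eye through crossed fibres, and layer 2 by the ipsilateral eye through uncrossed fibres. The comparison described here set layer 1 against layer 2 within the magnocellular class, so it asked which transcripts differ with the eye of input and the position of a magnocellular layer.

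Members were chosen by the layer number in the sample labels: 4 arrays of layer 1 and 4 of layer 2, which makes 8 of the 24 arrays in the series. The other 16 arrays hold layers 3 to 6. Each of 4 LGNs, from both sides of 2 rhesus macaques, gave 1 array per layer. In both animals the left eye had been deprived of pattern vision from birth, for 2 months by an opaque contact lens in one animal and for 4 months by lid suture in the other. In the ipsilateral LGN, layer 1 was the nondeprived and layer 2 the deprived layer. In the contralateral LGN, layer 1 was the deprived and layer 2 the nondeprived layer. No animal with normal vision was on these arrays, so every layer came from a deprived animal. Age, duration, method of deprivation and animal cannot be told apart, and the 4 arrays of a layer come from only 2 animals, with both sides of an animal sharing that animal. Layers were cut by laser capture, pooled over several sections, and RNA was amplified through 2 rounds before hybridisation to the Rhesus Macaque Genome Array. The measured value is a signal intensity per probe set, a group of short probes for 1 transcript. Values below are given in the order ipsilateral and contralateral LGN of the 2-month animal, then ipsilateral and contralateral LGN of the 4-month animal.

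The magnocellular label was checked against the parvocellular arrays. NEFH, the heavy neurofilament subunit of large projection neurons, was 0.66 log2 units higher in the 8 magnocellular than in the 16 parvocellular arrays (SE 0.13, limma adjusted p = 0.00271), with signals from 27547 to 68373 against 20848 to 36436. ACAN, the perineuronal net core protein aggrecan, did not pass the test (log2 difference -0.39, SE 0.18, adjusted p = 0.278), nor did the relay neuron genes VAMP1 (0.12, adjusted p = 0.785) and FOXP2 (-0.06, adjusted p = 0.967). GAD1, a GABA-synthesising enzyme of interneurons, was higher in the magnocellular arrays by 0.56 (SE 0.10, adjusted p = 0.00173), so the label rests here on NEFH alone. NEFH did not separate every array. Contralateral layer 1 of the 2-month animal, at 27547, was below the median of that animal's parvocellular arrays, 28570. Both layer 2 arrays of the 4-month animal were below its highest parvocellular signal, 36436. The highest NEFH signal, 68373, came from ipsilateral layer 2 of the 2-month animal. Between these magnocellular and parvocellular arrays 1348 of 37623 probe sets passed the same test (3.58%). The deprived layer 2 array of the ipsilateral LGN of the 2-month animal stood apart. Its mean correlation with the other arrays was 0.811 (0.885 to 0.919 for the other 23), and 57.1% of its probe sets reached a signal of 100, against 40.6% to 48.4% in the other 7 magnocellular arrays. The ratio of 3' to 5' signal of the GAPDH control, which rises as RNA or its amplified copy gets shorter, was 50.8 there. In layer 1 that ratio was 3.75, 7.31, 4.97 and 3.95, and in layer 2 it was 50.8, 14.3, 8.91 and 3.74, so layer 2 had the higher ratio in 3 of 4 LGNs. The part of this ratio in the layer differences below was not tested beyond a fit with it as a covariate.

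No gene separated layer 1 from layer 2 in all 4 LGNs strongly enough to pass the test. Signals were taken as log2 and fitted with limma across the 37623 probe sets that reached 100 on at least 1 of the 24 arrays, with the LGN as a block and deprivation as a covariate. Of these, 0 (0%) had a Benjamini-Hochberg adjusted p under 0.05, and the lowest adjusted p was 0.9998. At an unadjusted p under 0.05 there were 1142 probe sets (3.04%), 468 of them higher in layer 1 (1.24%) and 674 lower (1.79%). The sign of the difference was the same in all 4 LGNs for 3105 probe sets (8.25%), and the 4 arrays of one layer lay wholly above the 4 of the other for 483 (1.28%). By a fold rule on the same pairs, with a mean change of 1.7-fold and 4 of 4 ratios in one direction, 1509 probe sets qualified (4.01%), 741 higher in layer 1 (1.97%) and 768 lower (2.04%). Only 732 of the 1509 had a mean signal of 100 or more in the higher layer.

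A count of 0 does not show that the layers are alike, because the intervals were wide. Over 24307 probe sets with a mean signal of at least 100 the median SE of the layer difference was 0.377 log2 units, and for 40% of them the 95% interval lay within a 2-fold change in either direction. The same fit of parvocellular layer 4 against 3 had a median SE of 0.203, with 85.4% of intervals inside 2-fold, and layer 6 against 5 had 0.189 and 88.8%. The spread of the layer 1 minus layer 2 difference was widest in the 2-month animal. The SD over probe sets of the layer 1 minus layer 2 difference was 1.23, 0.963, 0.822 and 0.662 log2 units in the 4 LGNs, while for layer 4 minus 3 it was 0.451, 0.515, 0.616 and 0.716. For layer 6 minus 5 it was 0.503, 0.672, 0.596 and 0.387. As a description across probe sets, which are not independent and share arrays, the layer 1 minus layer 2 differences of the sides of the 2-month animal had a Pearson correlation of 0.321, and those of the 4-month animal -0.0186. Between LGNs of different animals the correlations ran from -0.352 to 0.00804.

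**Figure D1:**
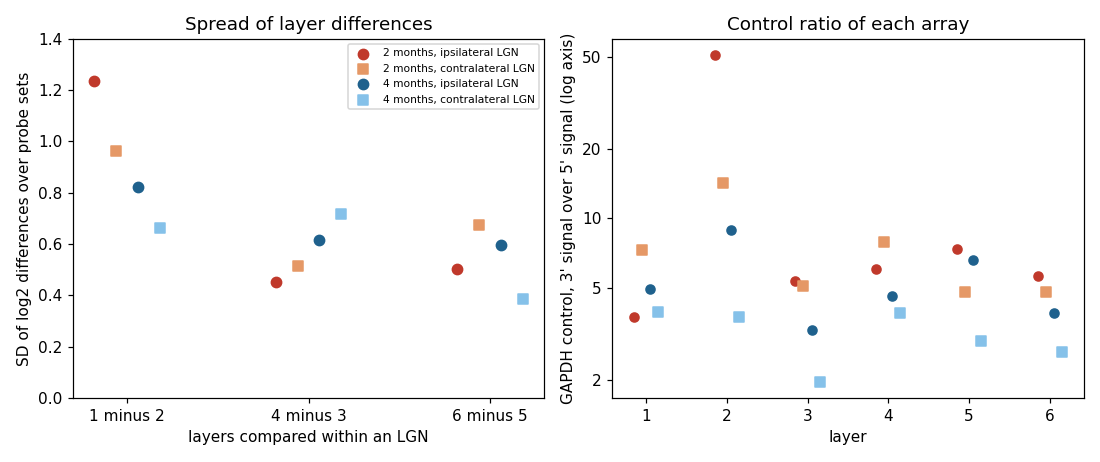
Left, the SD over probe sets with a mean signal of at least 100 of the log2 difference between neighbouring layers, with 1 point per LGN and pair of layers; right, the GAPDH control ratio of each of the 24 arrays on a log axis, coloured by LGN as on the left. Of the layer 1 minus layer 2 points, 1.23 and 0.963 of the 2-month animal lie above every point of the parvocellular pairs. So does 0.822, that of the ipsilateral LGN of the 4-month animal. The highest control ratio, 50.8, belongs to layer 2 of the 2-month animal.

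The genes with the smallest p on the side of layer 1 included 2 metabolic enzymes, a microglial integrin and a synaptic kinase. None passed the adjusted test, so what follows gives measured levels rather than established layer differences. ALDOC, aldolase C, a brain form of the glycolytic enzyme that is abundant in astrocytes, had signals of 6978, 6718, 12282 and 17892 in layer 1 and of 3691, 3736, 2264 and 8236 in layer 2. Layer 1 was the higher layer in every LGN, although the groups overlapped through the contralateral LGN of the 4-month animal, and the log2 difference was 1.33 (SE 0.31, 95% interval 0.64 to 2.02). ITGAM encodes CD11b, the complement receptor subunit of microglia and macrophages. Its signals were 2201, 2369, 1371 and 1212 in layer 1 and 1038, 924, 487 and 653 in layer 2, with no overlap (log2 difference 1.21, SE 0.30). CAMK2B, the beta subunit of calcium/calmodulin-dependent kinase II, read 2820, 2642, 1793 and 2191 in layer 1 against 1524, 1365, 664 and 1224 in layer 2, again with no overlap (1.03, SE 0.29).

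Levels of TNFRSF21, a death receptor that takes part in axon pruning, were 2448, 3298, 5052 and 4706 in layer 1 and 982, 1358, 1964 and 3795 in layer 2 (log2 difference 1.07, SE 0.30). KIF3B, a kinesin-2 motor subunit of axonal transport, gave 5488, 2716, 3388 and 2287 in layer 1 and 947, 2064, 1452 and 1904 in layer 2 (1.10, SE 0.31). Its lowest layer 1 array was above its highest layer 2 array. GOT1, the cytosolic aspartate aminotransferase, gave 430, 759, 1363 and 1416 in layer 1 and 171, 289, 209 and 1329 in layer 2 (1.38, SE 0.38). In GOT1 the contralateral LGN of the 4-month animal differed by only 0.09 log2 units. STXBP2, a partner of syntaxins in secretion, was dimmer, at 93.4, 227, 79.9 and 92.4 in layer 1 and 23.2, 8.80, 43.2 and 8.32 in layer 2, where every array was below 100. COX10, which makes heme A for cytochrome oxidase, had a log2 difference of 1.53 (SE 0.43), and EIF3L, a subunit of translation initiation factor 3, one of 2.04 (SE 0.56). The unnamed loci LOC705696, LOC709412 and LOC707275 completed the 12 genes, at 2.86 (SE 0.57), 1.77 (SE 0.40) and 0.96 (SE 0.27).

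None of the 12 genes on the side of layer 2 belonged to a gene list used here. TMEFF1, a transmembrane protein with follistatin-like modules, had signals of 472, 1082, 1281 and 1097 in layer 1 and 1958, 1517, 6647 and 1154 in layer 2 (log2 difference -1.25, SE 0.29). Its contralateral LGN of the 4-month animal was nearly level. IL12RB2, a subunit of the interleukin 12 receptor, had 435, 300, 1484 and 811 in layer 1 and 1280, 1453, 3696 and 1117 in layer 2 (-1.40, SE 0.36). STAG2, a subunit of cohesin, had 251, 140, 773 and 1001 in layer 1 and 1039, 547, 1713 and 1364 in layer 2 (-1.40, SE 0.37). Both genes overlapped between the layers over the 4 LGNs. Within each animal STAG2 did not overlap, while IL12RB2 did in the 4-month animal, where ipsilateral layer 1 had 1484 and contralateral layer 2 had 1117.

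APTX, a DNA strand-break repair protein, did not overlap: its layer 1 signals of 557, 317, 984 and 1035 all lay below its layer 2 signals of 1724, 1252, 1628 and 1495 (log2 difference -1.22, SE 0.35). SOS1, an exchange factor for Ras, also did not overlap, at 167, 24.2, 245 and 182 against 368, 269, 816 and 284 (-1.75, SE 0.50). CCT2, a chaperonin subunit, had 210, 227, 658 and 410 in layer 1 and 2096, 1869, 969 and 465 in layer 2 (-1.78, SE 0.53), so that its difference lay mainly in the 2-month animal. SVIP, an inhibitor of endoplasmic-reticulum-associated degradation, had a log2 difference of -1.17 (SE 0.34). The other genes were at low signal in layer 1. Mean layer 1 signals were 54.1 for MMP16, a membrane-anchored matrix metalloproteinase, 63.9 for NBEAL1, a neurobeachin-like protein, and 48.6 for KRT16, an epithelial keratin. EBLN2 stood at 20.4 and LOC699109 at 56.3. Their layer 2 means ran from 121 for EBLN2 to 344 for MMP16.

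In 20 of these 24 genes the smallest layer difference was that of the contralateral LGN of the 4-month animal, and in 11 the largest was that of the ipsilateral LGN of the 2-month animal, which holds the array that stood apart. Without that array ALDOC differed by 1.71 log2 units and ITGAM by 1.31, but CCT2 by -1.09, EIF3L by 1.29 and NBEAL1 by -1.36, each over 1.5 times smaller than with it. With the LGN as a block, its layer 1 partner then adds nothing either, so these values leave out that whole LGN pair. Groups did not overlap for 8 of the 24, a count that the choice by p raises and that is given only as a description beside the 1.28% over all probe sets.

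**Figure D2:**
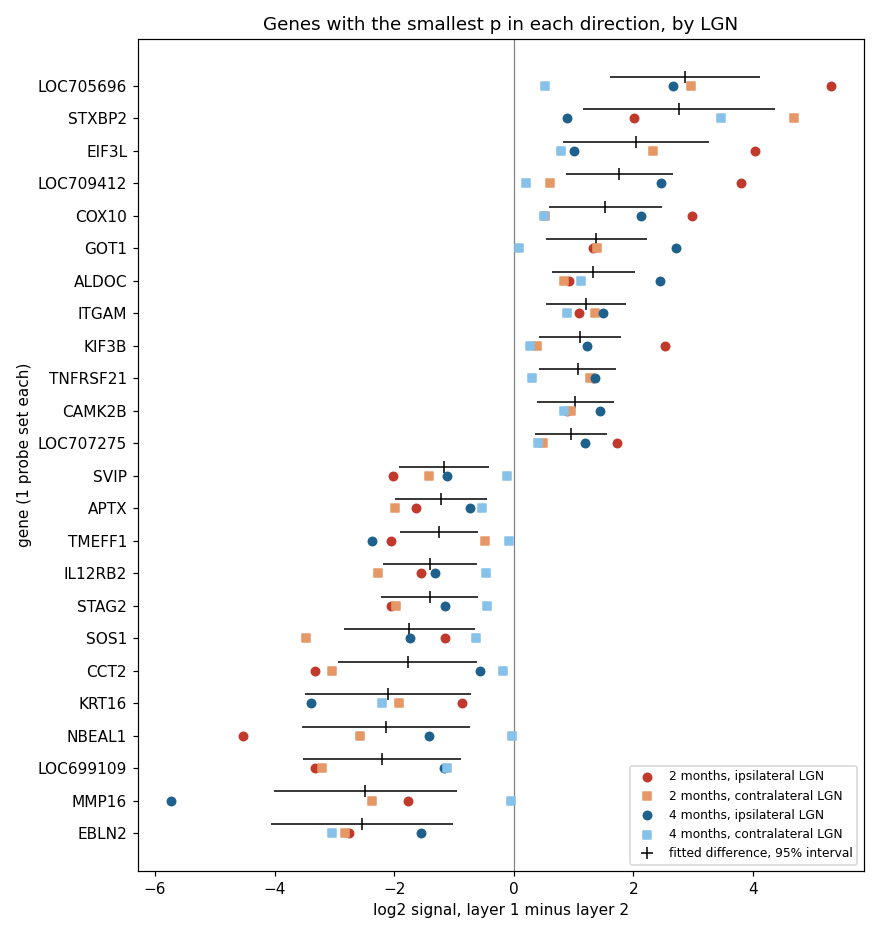
Log2 signal of layer 1 minus layer 2 for the 12 genes of each direction, with 1 point per LGN (circles ipsilateral, squares contralateral; red and orange 2 months, dark and light blue 4 months) and, just above, the fitted difference with its 95% interval. All 24 genes keep their sign in the 4 LGNs because the choice required it, and the light blue squares of the contralateral 4-month LGN are nearest to 0 in 20 of them.

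Most of these genes were measured by more than 1 probe set, and in most cases the other probe sets gave smaller differences. The 24 genes had 49 other tested probe sets, spread over 18 genes. Of these 49, 35 had the same sign and 4 had the same sign with an unadjusted p under 0.05, in GOT1, KIF3B, IL12RB2 and APTX. Larger differences than that of the named probe set came from 1 other probe set of APTX (-1.33) and 1 of IL12RB2 (-1.95). The APTX one, and the KIF3B one counted above, share the identifier of the named probe set apart from its ending. These may not be separate measurements. Of the 5 other APTX probe sets 3 had the same sign, and the highest was at 0.47. The other probe set of ALDOC differed by 0.26 log2 units and that of GOT1 by 0.60. The remaining CAMK2B probe sets differed by -0.01 and 0.09, and those of CCT2 ran from -0.55 to 0.31. Those of SOS1 ran from -0.12 to 0.31, with 2 of 4 of the same sign, and that of COX10 was at -0.27. A named probe set was not always the brightest of its gene. The brightest had mean signals in layers 1 and 2 of 2836 and 2823 for SOS1, 11317 and 10925 for CCT2, and 8650 and 6283 for GOT1. For ITGAM, STXBP2, EIF3L, TNFRSF21, EBLN2 and NBEAL1 no other probe set was tested.

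The parvocellular layers allowed the eye of input to be looked at apart from layers 1 and 2, since layers 4 and 6 are crossed and layers 3 and 5 uncrossed. Over these 16 arrays 0 of 37623 probe sets (0%) passed the adjusted test of crossed against uncrossed, and 951 (2.53%) had an unadjusted p under 0.05. Of the 24 genes, 11 had the same sign as between layers 1 and 2, 8 of the 12 higher in layer 1 and 3 of the 12 lower. ITGAM differed by 0.03 (SE 0.13) and ALDOC by 0.05 (SE 0.13) between crossed and uncrossed parvocellular layers, with signals of 715 to 1421 and 5334 to 14810. GOT1 was 0.39 higher in crossed layers (SE 0.18, unadjusted p = 0.0436, adjusted p = 0.9999). IL12RB2 was also higher there, by 0.42 (SE 0.12, unadjusted p = 0.00264, adjusted p = 0.9999), which is the opposite sign to layers 1 and 2. Both layers could lie away from the parvocellular levels: the ALDOC signals of layer 2 in 3 of 4 LGNs were below the lowest of the 16 parvocellular arrays, and those of layer 1 in the 4-month animal were 12282 and 17892 against a parvocellular median of 7136.

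**Figure D3:**
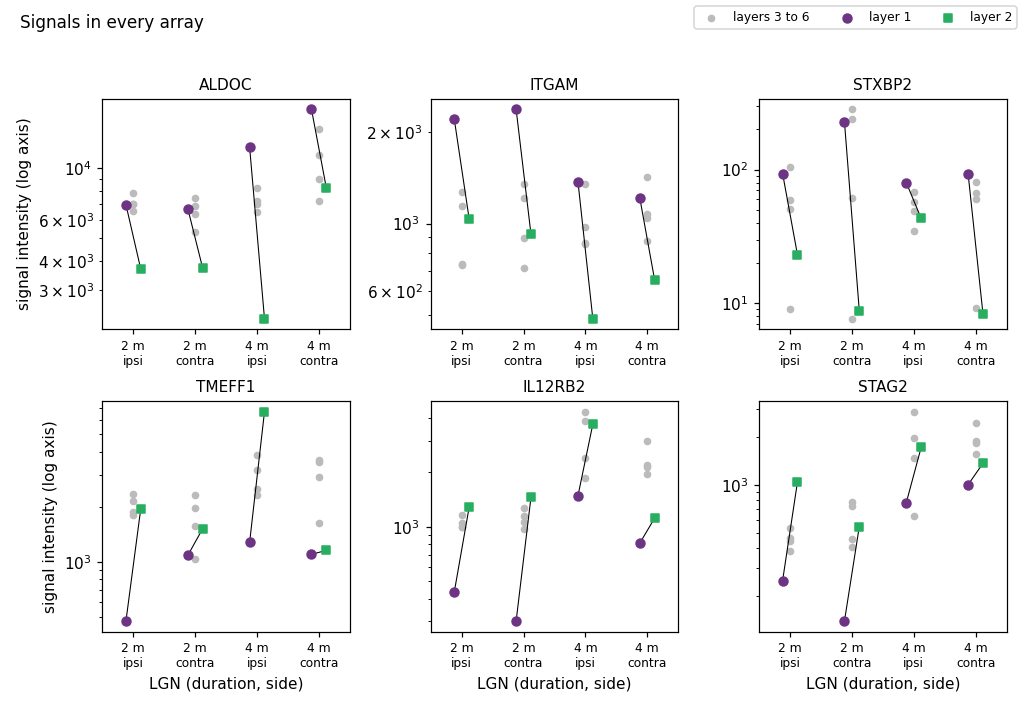
Signal intensity on a log axis in every array for the 3 genes of smallest p in each direction that have a gene name (ALDOC, ITGAM and STXBP2 on the side of layer 1, TMEFF1, IL12RB2 and STAG2 on that of layer 2), with layer 1 and layer 2 of an LGN joined by a line and layers 3 to 6 in grey. Every line runs the same way within a gene, but its slope varies, as for TMEFF1 with 1281 against 6647 in the ipsilateral and 1097 against 1154 in the contralateral LGN of the 4-month animal.

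Gene lists for cell types and pathways of the visual thalamus held 775 symbols in 33 lists, and 492 probe sets of them were measured, with 1 probe set per gene, the one of highest mean signal. In no list did a member pass the adjusted test: 0 of the 492 probe sets (0%) did, in either direction. At an unadjusted p under 0.05 there were 10 (2.03%, against 3.04% of all probe sets), 8 higher in layer 1 and 2 lower. Medians are given beside the median of all probe sets tested, 0.01 log2 units. In bulk tissue fewer cells of a type and less RNA per cell cannot be told apart, and the unadjusted p-values below only rank the members within a list. Between 2 and 42 members of a list were measured, and a median over few members moves with each of them.

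Among the neuronal lists, that of relay neurons had a median of -0.07 over 6 measured genes. NEFH had 33263, 27547, 41440 and 54827 in layer 1 and 68373, 50553, 34024 and 35798 in layer 2, so that layer 2 was the higher in the 2-month animal and layer 1 in the 4-month animal (log2 difference -0.25, SE 0.34). VAMP1, the vesicle synaptobrevin of fast-conducting neurons, differed by 0.38 (SE 0.30). Koniocellular neurons lie between the layers, and the paper reports that the dissection left out the koniocellular layer. Of 3 koniocellular genes, PENK, which encodes proenkephalin, was higher in layer 1 in every LGN, at 8841, 12139, 11252 and 11727 against 7201, 9205, 7153 and 6316 (0.56, SE 0.27, unadjusted p = 0.0658). Its signals in the 16 parvocellular arrays were 7050 to 12436, so PENK is not taken here as a mark of koniocellular cells. CAMK2A, the koniocellular kinase subunit, was near background in both layers, with mean signals of 31.6 and 54.9. The 6 GABAergic markers had a median of 0.04; GAD2, a GABA-synthesising enzyme, differed by -0.82 (SE 0.40) and the neuropeptide NPY by 1.29 (SE 0.77), at mean signals of 65.0 and 33.3.

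Glial lists had positive fitted medians, except that of oligodendrocytes. By LGN the medians were -0.26, 0.45, -0.13 and 0.57 for astrocytes and -0.21, 0.42, 0.05 and 0.43 for microglia and macrophages. Both leaned to layer 1 mainly in the contralateral LGNs, where layer 1 was the deprived layer. Over all probe sets tested the medians were -0.43, 0.06, 0.10 and 0.19, and 19175 of 37623 fitted differences were positive. Of 11 astrocyte markers 7 were positive, with a median of 0.25, and 2 had an unadjusted p under 0.05. GFAP, the astrocyte intermediate filament, had 5070, 12236, 5115 and 9495 in layer 1 and 5038, 4503, 5594 and 2940 in layer 2 (log2 difference 0.75, SE 0.27). Its excess lay wholly in the contralateral LGNs, where layer 1 was the deprived layer, while the ipsilateral pairs were level. GJB6, connexin 30 of astrocyte gap junctions, was higher in layer 1 in each LGN, at 2204, 3137, 3130 and 2903 against 725, 2101, 2002 and 2432 (0.77, SE 0.30), and its lowest value was in the array that stood apart. The summed signal of the 11 markers, which SLC1A2 and other abundant genes dominate, ran from 80683 to 141730 in layer 1 and from 93949 to 107991 in layer 2.

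ITGAM was the leading member of the 13 microglia and macrophage markers, of which 9 were positive (median 0.14). Their summed signal was 9644 to 13640 in layer 1 and 8914 to 9992 in layer 2, ranges that overlap. AIF1, a calcium-binding protein of the same cells, leaned to layer 2 in every LGN, at 174, 180, 62.8 and 175 against 270, 224, 120 and 206 (log2 difference -0.53, SE 0.42). Of 9 oligodendrocyte and myelin markers 6 were negative (median -0.08), with ASPA, the aspartoacylase of these cells, at -0.32 (SE 0.39) and OLIG2, their lineage transcription factor, at 0.20 (SE 0.30). Of 5 precursor markers 3 were positive (median 0.19). The proteoglycan VCAN differed by -0.51 (SE 0.31) and the receptor phosphatase PTPRZ1 by -1.13 (SE 0.74), while GPR17, SOX6 and CSPG4 had 0.42, 0.44 and 0.19.

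The lists for vessels, coverings and blood held few measured markers, from 2 to 9 each. The 9 endothelial markers had a median of 0.31, the 6 mural markers one of 0.30 with all 6 positive, and the 8 meningeal markers one of 0.12. CDH5, the cadherin of endothelial junctions, differed by 0.58 (SE 0.45) and ENG, a TGF-beta co-receptor of endothelium, by 0.50 (SE 0.39). Of the mural genes, MYH11, smooth muscle myosin, differed by 0.63 (SE 0.45) and the pericyte channel KCNJ8 by 0.52 (SE 0.39), and of the meningeal genes FMOD, a collagen-binding proteoglycan, by 0.55 (SE 0.44) and IGFBP2 by 0.56 (SE 0.75). For choroid plexus and ependyma FOXJ1, the ciliogenesis factor, was 1.03 higher in layer 1 (SE 0.63) and CLIC6 0.52 lower (SE 0.64). CLIC6 was the only marker of the 12 cell type lists that stayed under 100 in all 8 arrays. For blood ALAS2, of heme synthesis in red cells, differed by 0.54 (SE 0.49) and the globin HBB by -0.28 (SE 0.52). Each of these intervals included 0.

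Genes of wiring and of synapse removal showed no common direction. Medians were 0.05 for 19 ephrins and Eph receptors, 0.08 for 37 semaphorins, slits, netrins and their receptors, and -0.08 for 25 cadherins, teneurins and contactins. EPHA4, a receptor for ephrins, differed by -0.87 (SE 0.45), its ligand gene EFNA5 by 0.93 (SE 0.64), the semaphorin co-receptor NRP2 by 1.84 (SE 0.87) and the slit receptor ROBO2 by -0.83 (SE 0.52). The adhesion genes CNTN3, a contactin, and CDH12, a cadherin, were at -0.53 (SE 0.35) and 0.45 (SE 0.36). CNTN3 leaned to layer 2 in all 4 LGNs. Of 11 complement and synapse removal genes the chemokine CX3CL1, a neuronal signal to microglia, was higher in layer 1 in each LGN, at 95.6, 227, 191 and 75.6 against 21.3, 116, 53.9 and 66.9 (1.29, SE 0.53, unadjusted p = 0.0334). MEGF10, an engulfment receptor, differed by -0.37 (SE 0.34).

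Transmitter receptors were as mixed. Of 8 glutamate receptor genes 7 were positive (median 0.29); the NMDA receptor subunit GRIN1 differed by 1.38 (SE 0.81) and GRIN3B by -1.79 (SE 0.88), and GRIN3B averaged 19.8 in layer 1. Of 10 GABA and glycine receptor genes 8 were negative (median -0.11), led by the GABA-A subunit GABRA4 at -0.55 (SE 0.35) and the glycine receptor subunit GLRA1 at -1.31 (SE 0.97). Of 20 acetylcholine and monoamine receptors the muscarinic receptor CHRM3 was lower in layer 1, at 560, 290, 2300 and 2242 against 1269, 2534, 2108 and 2337 (log2 difference -1.06, SE 0.46, unadjusted p = 0.0406). This difference lay in the 2-month animal alone. The nicotinic subunit CHRNA2 differed by 0.69 (SE 0.39).

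Of 17 sodium, calcium and HCN channel genes 15 were positive (median 0.15). CACNA1E, the R-type calcium channel pore, had the largest difference among the 10 list members with an unadjusted p under 0.05, 2.63 log2 units (SE 0.81), but only 2 of its 8 signals reached 100: 44.6, 156, 62.2 and 115 in layer 1 against 5.68, 17.9, 10.1 and 32.9 in layer 2. The L-type channel gene CACNA1D was 0.80 higher (SE 0.48). The 37 potassium channel genes had a median of 0.05, with KCNJ9, a G-protein-gated channel, at 0.87 (SE 0.54) and KCNA1, the axonal Kv1.1, at -1.01 (SE 0.64). Of 16 vesicle and release genes VAMP2, the main synaptobrevin of central synapses, was higher in layer 1 in each LGN, at 407, 391, 310 and 254 against 204, 293, 163 and 194 (0.68, SE 0.37), and the vesicle protein SV2C was at -0.72 (SE 0.44). Of 20 calcium-binding genes NCS1, a neuronal calcium sensor, differed by 0.46 (SE 0.30) and NECAB2 by 0.40 (SE 0.31).

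No gene of energy metabolism passed the test. The 42 oxidative phosphorylation genes had a median of -0.05, with 24 of 42 negative, whereas ATP5F1B, the catalytic beta subunit of ATP synthase, was higher in layer 1 in each LGN. Its signals were 9202, 12681, 16751 and 23613 in layer 1 and 2635, 8749, 8556 and 19103 in layer 2 (log2 difference 0.90, SE 0.28, unadjusted p = 0.00834). COX7B, a cytochrome oxidase subunit, was at -0.42 (SE 0.35). Of 12 glycolysis genes 10 were positive (median 0.24). TPI1, triosephosphate isomerase, had 4886, 4166, 5385 and 6295 in layer 1 and 2329, 4321, 1913 and 5572 in layer 2 (0.67, SE 0.28), and the contralateral LGN of the 2-month animal went the other way. GAPDH did the same, with 12029, 8055, 11784 and 15053 against 7242, 11809, 2836 and 6630 (0.85, SE 0.35).

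Of 17 activity-regulated genes NR4A2, a nuclear receptor induced by neuronal activity, differed by 0.56 (SE 0.33) and the phosphatase gene DUSP1 by 0.28 (SE 0.28). NR4A2 was higher in layer 1 of the 2-month animal, at 7431 and 7757 against 2978 and 3639, and nearly level in the 4-month animal, at 7209 and 6504 against 7227 and 7395. Of 29 matrix genes FBN1, fibrillin 1, leaned to layer 2 in each LGN (-0.61, SE 0.29), and HAPLN4, a perineuronal net link protein, was higher in layer 1 on the ipsilateral and lower on the contralateral side of both animals (0.57, SE 0.28). Among the 12 neuropeptide genes PENK and NPY again had the smallest p. Of 14 retinoic acid pathway genes RORA, an orphan nuclear receptor kept in that list, was lower in layer 1 in each LGN, at 585, 1177, 631 and 417 against 5482, 10586, 765 and 461 (-1.71, SE 0.54, unadjusted p = 0.00875). Its difference lay mainly in the 2-month animal, and the pairs of the 4-month animal differed by only -0.28 and -0.14 log2 units. RDH10, a retinol dehydrogenase, was at -0.77 (SE 0.50).

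The remaining lists were growth factors, Wnt signalling, cytoskeleton and stress. GFRA2, a co-receptor of neurturin, differed by 0.86 (SE 0.46) and IGF1 by 0.66 (SE 0.40) among 28 growth factor genes, and the Wnt receptor FZD6 by 1.20 (SE 0.57) and the Wnt enhancer RSPO2 by 0.91 (SE 0.57) among 26. Cytoskeletal CRMP1 and MAP1B were at 0.43 (SE 0.29) and -0.66 (SE 0.46) among 15 genes. SOD2, mitochondrial superoxide dismutase, and the small heat shock gene HSPB8 were at 0.45 (SE 0.31) and 0.40 (SE 0.29) among 14.

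**Figure D4:**
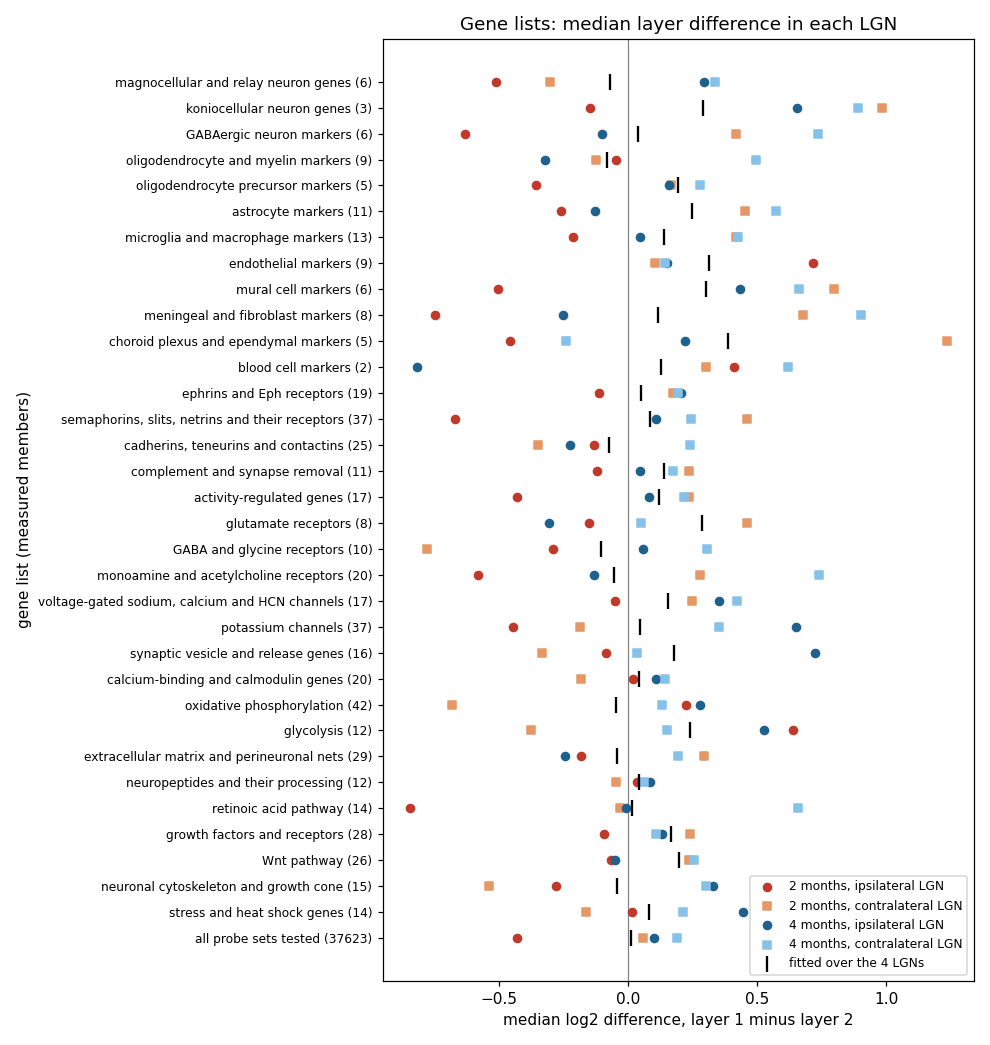
Median log2 difference, layer 1 minus layer 2, of the measured members of each gene list (their number in brackets), with 1 point per LGN (circles ipsilateral, squares contralateral; red and orange 2 months, dark and light blue 4 months) and a black bar for the median of the fitted differences. Most lists have LGNs on both sides of 0, and the bottom row gives the 37623 probe sets tested, at -0.43, 0.06, 0.10 and 0.19 in the 4 LGNs.

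The layer 1 minus layer 2 difference was not the same in the 2 animals for part of the probe sets. The difference of the layer effect, 4 months minus 2 months, was tested in the same model with 1 added term. By limma 2073 of 37623 probe sets (5.51%) passed at an adjusted p under 0.05. As a description of these 2073, chosen for that difference, both LGNs of one animal had the opposite sign to both LGNs of the other in 1428, and 36 had the same sign in all 4. In 1662 (4.42%) layer 1 stood higher against layer 2 in the 4-month than in the 2-month animal, and in 411 (1.09%) lower. This balance turned with each array scaled to the same median, where 803 were higher and 1017 lower. The same test passed 10 probe sets (0.0266%) for layer 4 against 3 and 2 (0.00532%) for layer 6 against 5. It rests on 1 residual degree of freedom, with the spread borrowed across probe sets (prior degrees of freedom 652), and on 1 animal per duration. The count depended on the fit: 0 passed with signals under 50 set to 50 and 0 with limma's spread fitted without a trend. With all 24 arrays in 1 fit 2995 passed, of which 1637 were among the 2073. In that larger fit 339 passed without the array that stood apart (226 of the 2073) and 168 with the GAPDH control ratio as a covariate (117 of the 2073).

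The choice of the 1662 probe sets fixed that layer 1 was low against layer 2 in the 2-month animal relative to the 4-month animal, so their levels are given only as a description, against the parvocellular layers of the same animal. Their median log2 deviation from the parvocellular median was 1.74 and 1.30 in layer 2 of the 2-month animal, and -0.42 and -0.35 in layer 1. In the 4-month animal it was -0.69 and -0.51 in layer 2 and 0.18 and 0.35 in layer 1. Over all probe sets tested the layer 2 arrays of the 2-month animal deviated by 0.34 and 0.06. The 411 others had -1.46 and -0.98 in layer 2 of the 2-month animal. The layer 2 arrays of this animal had the highest control ratios of the 24, 50.8 and 14.3. Of 762 genes with several probe sets tested and at least 1 that passed, 83 (10.9%) had at least 2 that passed in the same direction and 15 had probe sets that passed in opposite directions.

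The 3 genes with the smallest p of this test were CDK2AP1, an inhibitor of the cyclin-dependent kinase CDK2, SRRM2, a scaffold of nuclear speckles and splicing, and the unnamed locus LOC701204. CDK2AP1 had 60.5 and 127 in layer 1 against 2807 and 5791 in layer 2 of the 2-month animal, and 763 and 491 against 275 and 362 in the 4-month animal (difference of the log2 effect 6.48, SE 0.58, adjusted p = 2.3e-22). Its layer 2 signals in the 2-month animal were above the highest of the 16 parvocellular arrays, 1040. SRRM2 had 766 and 1396 against 23873 and 14262, then 5139 and 1800 against 771 and 2161 (5.39, SE 0.50, adjusted p = 2.35e-21), with a parvocellular range of 1014 to 7024. LOC701204 followed the same pattern (5.51, SE 0.54, adjusted p = 3.63e-19). Other probe sets of the same genes did not all follow. The second SRRM2 probe set had a difference of the log2 effect of -0.55 (SE 0.86), and the other CDK2AP1 probe sets, at mean signals of at most 102, had 8.94 (SE 2.59, adjusted p = 0.0179) and 1.17 (SE 1.28). Of the 4 other LOC701204 probe sets, 2 passed, at 4.78 and 3.12, and 2 had 0.49.

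Of the 492 list members 31 (6.3%, against 5.51% of all probe sets) passed this test, 26 with layer 1 higher against layer 2 in the 4-month animal and 5 with the opposite change. In 25 of the 31 layer 2 was the higher layer on both sides of the 2-month animal. The choice of these genes by the test largely fixes that count, so it is given only as a description. Over all probe sets tested the median layer 1 minus layer 2 difference in that animal was -0.43 and 0.06. Of the potassium channels 5 of 37 passed, and of the retinoic acid pathway genes 3 of 14 (RORA, RARG and RXRA). Cadherins, teneurins and contactins had 3 of 25, and growth factors and receptors 3 of 28. No list was tested as a whole, and RORA is an orphan receptor kept in the retinoic acid list. Some of these genes had signals near background, such as 5.45 for KCND2 and 14.8 for RXRA. None passed with signals under 50 set to 50. The channel genes were KCNA1, KCNC1, KCNC4, KCND2 and the beta subunit gene KCNAB3. KCNC1, the fast-spiking channel Kv3.1, had 238 and 175 in layer 1 against 929 and 1862 in layer 2 at 2 months, and 761 and 342 against 213 and 352 at 4 months (3.58, SE 0.60, adjusted p = 8.39e-07). KCNA1 had 226 and 254 against 781 and 3297, then 179 and 176 against 86.6 and 134 (3.46, SE 0.65, adjusted p = 2.71e-05). Of these, KCNC1 is known for fast repolarisation in neurons that fire at high rates.

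SLC1A2, the main glutamate transporter of astrocytes, had 3320 and 2239 in layer 1 against 13186 and 16315 in layer 2 at 2 months, and 25524 and 24343 against 16831 and 18742 at 4 months (2.92, SE 0.49, adjusted p = 1.28e-06). For SLC1A2 both layer 1 arrays of the 2-month animal were below the lowest parvocellular array of that animal, 4782, and both layer 2 arrays were above its highest, 11358, so both layers lay outside the parvocellular range of that animal. RORA differed between the animals by 2.99 (SE 0.52, adjusted p = 2.54e-06) and EPHA4 by 2.38 (SE 0.49, adjusted p = 0.000165). EPHA4 had 906 and 1102 in layer 1 and 3105 and 5614 in layer 2 at 2 months, then 4790 and 3555 against 2959 and 3692. The GABA-A subunit GABRA2 changed by 2.93 and CHRM3 by 2.19, the adhesion molecule L1CAM by 2.11, and the metabolic genes ATP5F1D, CYC1 and GAPDH by 1.80, 1.54 and 1.53.

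The 5 members with the opposite change were SOX6, a transcription factor of oligodendrocyte precursors (-2.43), the collagen gene COL12A1 (-2.02), the sodium channel SCN2A (-1.90), IGF1 (-1.79) and EPHA1 (-1.72). SCN2A had 1140 and 1517 in layer 1 against 432 and 472 in layer 2 at 2 months, and 967 and 1212 against 1928 and 996 at 4 months. Except for the 1928 of ipsilateral layer 2 at 4 months, every magnocellular signal of SCN2A was below the lowest of the 16 parvocellular arrays, 1657. None of the 31 passed with signals under 50 set to 50 or without a trend in the spread. Without the array that stood apart, 4 of the 31 passed in the fit of all 24 arrays (CHRM3, SLC1A2, EPHA4 and KCNA1), and with the control ratio as a covariate KCNA1 alone did.

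**Figure D5:**
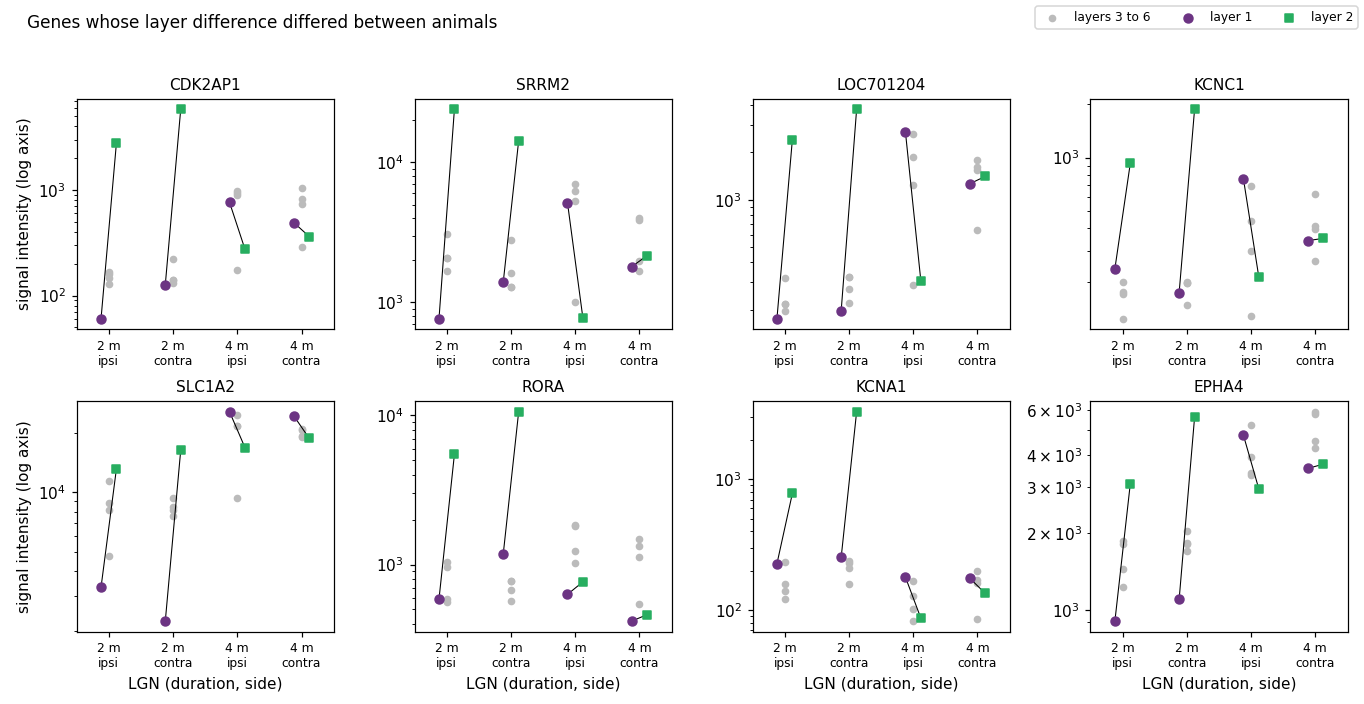
Signal intensity on a log axis in every array for the 3 genes, and the 5 list members, with the smallest p for a layer difference that differs between the animals; layer 1 and layer 2 of an LGN are joined by a line and layers 3 to 6 are grey. In the 2-month animal all 8 genes are higher in layer 2 (for CDK2AP1 2807 and 5791 against 60.5 and 127 in layer 1), while in the 4-month animal all but RORA are higher in layer 1 in the ipsilateral LGN and 3 of 8 (CDK2AP1, SLC1A2 and KCNA1) in the contralateral LGN.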

How the data were processed

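Twice-amplified RNA of laser-captured LGN layers was hybridised to 24 arrays. Per the labels, the authors made the deposited signal intensity of each probe set with GCOS, and each array has a trimmed mean of about 500.04, a common scaling that hides any change of total RNA. Precision is limited by the number of arrays.

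Of 52865 probe sets, 99 were controls. Signals under 1 were set to 1 before log2, and 37623 probe sets with a signal of at least 100 on 1 or more arrays were tested. The platform annotation gave 1 symbol to 24956 probe sets, several to 361 and none to 27449, and 16 symbols were updated through a RefSeq gene table. Only probe sets with 1 symbol were named.

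Tests used limma 3.58.1 in R 4.3.3 (lmFit, eBayes with a trend, two-sided, Benjamini-Hochberg) with LGN as a block and deprivation as a covariate. For the comparison of the magnocellular layers this left 2 residual and 9.07 prior degrees of freedom, and that fit was tested on simulated data. The test of the difference between the animals was not tested on simulated data. P-values reflect the spread between samples of 2 animals. An exact sign-flip test over 4 LGNs cannot go below p = 0.125. LGN numbers pair the layers because both were cut from the same LGN; the residuals of paired layers correlated by 0.163 to 0.368.

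Named genes were, in each direction, the 12 of smallest p (none passed the adjusted test) with the same sign in 4 of 4 LGNs and, in the layer where they were higher, a mean of 100 or more; the 2 members of smallest p in each list; defining cell type markers; and the 3 genes of smallest p for the difference between animals. The members, gene lists and tests were chosen with earlier results of these data known. Alternatives varied the normalization, filter, floor, block, covariates and arrays. Sequences and coordinates were not used here.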

Additional observations from a re-analysis of the deposited data

Results flagged for a closer look

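The layer effect differed between the animals for 2073 probe sets by limma's test of the difference, and the members of this group with a name here are given with the difference of the log2 effect, 4 months minus 2 months. Besides those described above these were the list members KCND2 (5.71), KCNAB3 (3.90) and KCNC4 (1.87) of the potassium channels, the adhesion genes CDH7 (3.44) and CDH8 (3.03), the histamine receptor HRH3 (3.08), the NMDA receptor subunit GRIN1 (3.56), the growth factor receptor FGFR1 (3.62) and IGFBP2 (3.504). The retinoid receptors RARG and RXRA had 3.32 and 3.16, SLIT3 had 2.05, STMN3 1.78, MT3 1.56 and DNM1 1.55. Some of these values rest on very low signals. In layer 1 of the 2-month animal KCND2 had 5.45 and 10.4, and FGFR1 19.6 and 14.4. In layer 2 of the 4-month animal GRIN1 had 6.48 in the ipsilateral and RXRA 14.8 in the contralateral LGN. Among the genes named for the layer difference itself, CCT2 (2.81), NBEAL1 (2.82) and LOC705696 (-2.54) also differed between the animals. The genes given above had 6.48 (CDK2AP1), 5.39 (SRRM2), 5.51 (LOC701204), 3.58 (KCNC1), 3.46 (KCNA1), 2.99 (RORA), 2.93 (GABRA2), 2.92 (SLC1A2), 2.38 (EPHA4), 2.19 (CHRM3), 2.11 (L1CAM), 1.80 (ATP5F1D), 1.54 (CYC1) and 1.53 (GAPDH), and, with the opposite sign, -2.43 (SOX6), -2.02 (COL12A1), -1.90 (SCN2A), -1.79 (IGF1) and -1.72 (EPHA1). Whether animal, age, duration or method of deprivation goes with these values cannot be told apart.

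In 12 of 226 groups of 4 arrays (113 probe sets in each layer), 1 array lay far from the others. The measure is the gap of that array to its nearest neighbour as a share of the group's range, and chance alone gives a ratio past Dixon's 95% critical value in about 1 of 20 groups, which is about the share seen here, so the cases are listed only as values. In layer 1 the deprived contralateral array at 2 months stood apart for STXBP2 (227 against 79.9 to 93.4, ratio 0.851), SOS1 (24.2 against 167 to 245, 0.833), LOC699109 (9.21 against 60.4 to 84.1, 0.850) and STMN3 (5493 against 8270 to 8804, 0.867). The nondeprived ipsilateral array did so for TMEFF1 at 2 months (472 against 1082 to 1281, 0.831) and for AIF1 at 4 months (62.8 against 174 to 180, 0.966). The deprived contralateral array at 4 months did so for EBLN2 (10.1 against 22.4 to 25.7, 0.853) and CDH5 (114 against 219 to 242, 0.870). In layer 2 the deprived ipsilateral array at 2 months, the one that stood apart over all probe sets, was low for GJB6 (725 against 2002 to 2432, 0.839) and high for CNTN3 (685 against 391 to 421, 0.868). FMOD was high in the deprived ipsilateral array at 4 months (165 against 111 to 118, 0.849) and CDH5 in the nondeprived contralateral one (142 against 124 to 125, 0.972).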

How the results depend on the processing

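In 19 of 22 alternatives fixed for the layer comparison 0 probe sets passed the adjusted test. The exceptions were the fits without layer 1 replicate 4 (177), without layer 2 replicate 4 (178) and of deprived layers alone (36). Replicate 4 is the contralateral LGN of the 4-month animal. With the LGN as a block, an array left without its partner adds nothing to the layer difference. Fits without layer 1 and without layer 2 of the same LGN are therefore nearly the same fit, not separate alternatives. Of the calls without either array, 173 were shared, as this fixes, 167 of them lower in layer 1, and 165 also differed between the animals. They held 2 list members, SLC1A2 and RORA, so list calls ran from 0 to 2 over the fits that each left out 1 array, and calls over all probe sets from 0 to 178 (372 to 3462 at an unadjusted p under 0.05). The fold rule qualified 1509 probe sets, of which 732 had a mean signal of 100 or more in the higher layer. Without the replicate block (the LGN) 0 passed and 852 had an unadjusted p under 0.05. With all 24 arrays 0 passed, 3650 had an unadjusted p under 0.05 and the lowest adjusted p was 0.115. With the GAPDH ratio as a covariate 0 passed, 3029 had an unadjusted p under 0.05, the lowest adjusted p was 0.0746 and the median of all probe sets was 0.20 instead of 0.01.

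The 2073 probe sets that differed between animals became 0 with signals under 50 set to 50, 0 without a trend in the spread, 368 without the replicate block, 339 with all 24 arrays but without the array that stood apart, and 168 with all 24 arrays and the GAPDH ratio. With each array scaled to the same median 1820 passed, 803 upward and 1017 downward against 1662 and 411, and the median of this difference over all probe sets was -0.26 instead of 0.28. For this difference the fits of all 24 arrays and the scaling to one median were chosen after seeing the data, as was every use of all 24 arrays with the GAPDH ratio or without the array that stood apart. The causes were not tested.

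For the 24 genes named for the layer difference, whose choice by one sign in all 4 LGNs largely fixes the sign, 11 of 621 repeats passed the adjusted test and 0 reversed. Of 825 repeated list medians 785 moved by less than the spread between LGNs, and 7 of 33 lists kept their sign throughout. Signs of other named genes reversed, with the log2 differences that follow. With nondeprived layers only these were VAMP1 -0.051, GAD2 0.75, IGFBP2 -0.046, ALAS2 -0.73, CNTN3 0.060 and ATP5F1B -0.058. With the GAPDH ratio as a covariate they were NEFH 0.52, OLIG2 -0.30, PTPRZ1 0.31, KCNJ8 -0.18, EPHA4 0.50, ROBO2 0.36, CDH12 -0.48, NR4A2 -0.19, DUSP1 -0.028, GLRA1 0.32, KCNA1 0.78, SV2C 0.16, IGF1 -0.29, FZD6 -0.25, RSPO2 -0.38 and MAP1B 0.081. With all 24 arrays and that covariate they were NEFH 0.29, OLIG2 -0.24, KCNJ8 -0.069, ALAS2 -0.16, EPHA4 0.26, ROBO2 0.097, CDH12 -0.60, NR4A2 -0.052, DUSP1 -0.033, GLRA1 0.18, KCNA1 0.55, SV2C 0.13, RORA 0.24, IGF1 -0.12, FZD6 -0.23, RSPO2 -0.091 and MAP1B 0.012. In the 4-month animal alone they were NEFH 0.45, OLIG2 -0.16, PTPRZ1 0.24, KCNJ8 -0.011, EPHA4 0.32, ROBO2 0.059, CDH12 -0.17, NR4A2 -0.094, CHRM3 0.033, KCNA1 0.71, SV2C 0.029, IGF1 -0.23, RSPO2 -0.058 and MAP1B 0.17. In the 2-month animal alone they were CAMK2A -0.50, IGFBP2 -1.20, MEGF10 0.26, GRIN1 -0.40 and NECAB2 -0.021. CAMK2A was also -0.057 with 16 added to the signal, -0.40 with signals under 50 set to 50 and -0.20 with deprived layers only, and CDH12 was -0.035 with all 24 arrays without the array that stood apart. Leaving out 1 array at a time reversed NEFH (-0.63 to 0.12), CAMK2A (-0.58 to 1.17), ASPA (-0.71 to 0.070), OLIG2 (-0.065 to 0.46), IGFBP2 (-0.69 to 1.80), HBB (-0.70 to 0.14), CDH12 (-0.075 to 0.97), MEGF10 (-0.74 to 0.00297) and KCNA1 (-2.03 to 0.0068).

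Signal over background limited many of these values, since 13316 of the 37623 tested probe sets had a mean signal under 100 over the 8 magnocellular arrays.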
